A study of Mus musculus with 6 samples.

Results

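Described here are 10 genes encoding the transcription factors that set up and hold the identity of group 2 innate lymphoid cells (ILC2s) in sorted mouse lung ILC2s with and without the mechanosensitive ion channel gene Piezo1. They were chosen by name, with earlier results of these data known: Gata3, Rora, Id2, Bcl11b, Ets1, Gfi1, Tcf7, Nfil3, Maf and Zbtb16. All 10 were found among the 18057 genes of the deposited table. Of the 10, 9 had enough counts to enter the test over 14149 genes, and Zbtb16 did not.

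ILC2s are tissue-resident lymphocytes without antigen receptors that secrete IL-5 and IL-13 when epithelial alarmins such as IL-33 reach them. Their lineage is built in steps. NFIL3, TCF-1 (the product of Tcf7), PLZF (Zbtb16) and ID2 act in the progenitors that leave the T and B cell paths, ID2 by binding E proteins and keeping them off DNA. GATA3, RORα, BCL11B and GFI1 then give the ILC2 its type 2 program and keep other fates silent, while ETS1 and c-MAF are used widely in lymphocytes.

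RNA came from lung ILC2s of mice given 3 intranasal injections of 1 µg IL-33, then kept in culture for 24 h in IL-2 (10 ng/mL) plus IL-7 (10 ng/mL). The 3 WT libraries carry the genotype label Il7rcre, that is, a Cre driver at the locus of the IL-7 receptor gene, and the 3 Piezo1 KO libraries carry Il7rcrePiezo1flx, the same driver with a floxed Piezo1. Il7r is used early in lymphoid development, so the deletion is not limited to mature ILC2s. The labels give no age or number of animals per library, nor whether the replicates are different mice, so a p-value here reflects how far these 6 libraries scatter, part of which may be technical. Levels are given as CPM, counts scaled to a common library size by TMM.

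The libraries held between 13059046 and 33459904 estimated counts, the lowest in WT replicate 3. Piezo1 itself was at 247, 278 and 160 CPM in WT replicates 1, 2 and 3 and at 150, 109 and 122 CPM in Piezo1 KO replicates 1, 2 and 3. Its groups did not overlap, and its log2 fold change of −0.85 ± 0.21 (SE) did not pass (adjusted p = 0.112, edgeR). Counts over the whole gene take in exons outside the floxed part and do not measure the intact transcript. Genes of the mitochondrial genome took 0.560% to 0.633% of counts in WT and 0.641% to 0.841% in Piezo1 KO, and cytoplasmic ribosomal protein genes 1.74% to 3.04% and 2.40% to 3.18%; the part of either in the results was not tested. Of the labelled cell type, all 14 listed markers outside the 10 factors had values, and their summed level was 10446 to 11322 CPM in WT and 12182 to 13150 CPM in Piezo1 KO. Il5, a cytokine of activated ILC2s, made up 3986 to 4082 and 4578 to 5483 CPM of that sum, and of the 14 markers 1 rose, 2 fell and 11 did not pass, with 5 negative values. Il17rb rose, and Icos and Il7r fell, Il7r being the locus of the Cre driver. Over all tested genes 1% rose and 0.509% fell.

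The comparison asked whether losing Piezo1 changes the factors that define the ILC2. Nfil3 rose in Piezo1 KO, and the other 8 tested factors did not pass the threshold in either direction. The count of 1 in 9 stood beside 1.51% of all 14149 tested genes called at an adjusted p of 0.05 (quasi-likelihood test in edgeR, Benjamini-Hochberg adjusted), with 1% called higher and 0.509% called lower. Id2 was the other factor with all Piezo1 KO libraries above all WT libraries. Gata3, Rora, Bcl11b, Gfi1 and Maf had all Piezo1 KO libraries below all WT libraries, and Ets1 and Tcf7 overlapped. So 7 of 9 had groups that did not overlap, where 20.5% of all tested genes did, and 5 of 9 had an unadjusted p under 0.05, where 13.2% of all tested genes did. Because the factors were chosen with earlier results of these data known, these counts describe them and test nothing. The median log2 fold change of the 9 was −0.16 and that of all tested genes 0.018. In RNA from a bulk of cells, fewer cells of a type and less RNA per cell cannot be told apart.

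**Figure D1:**
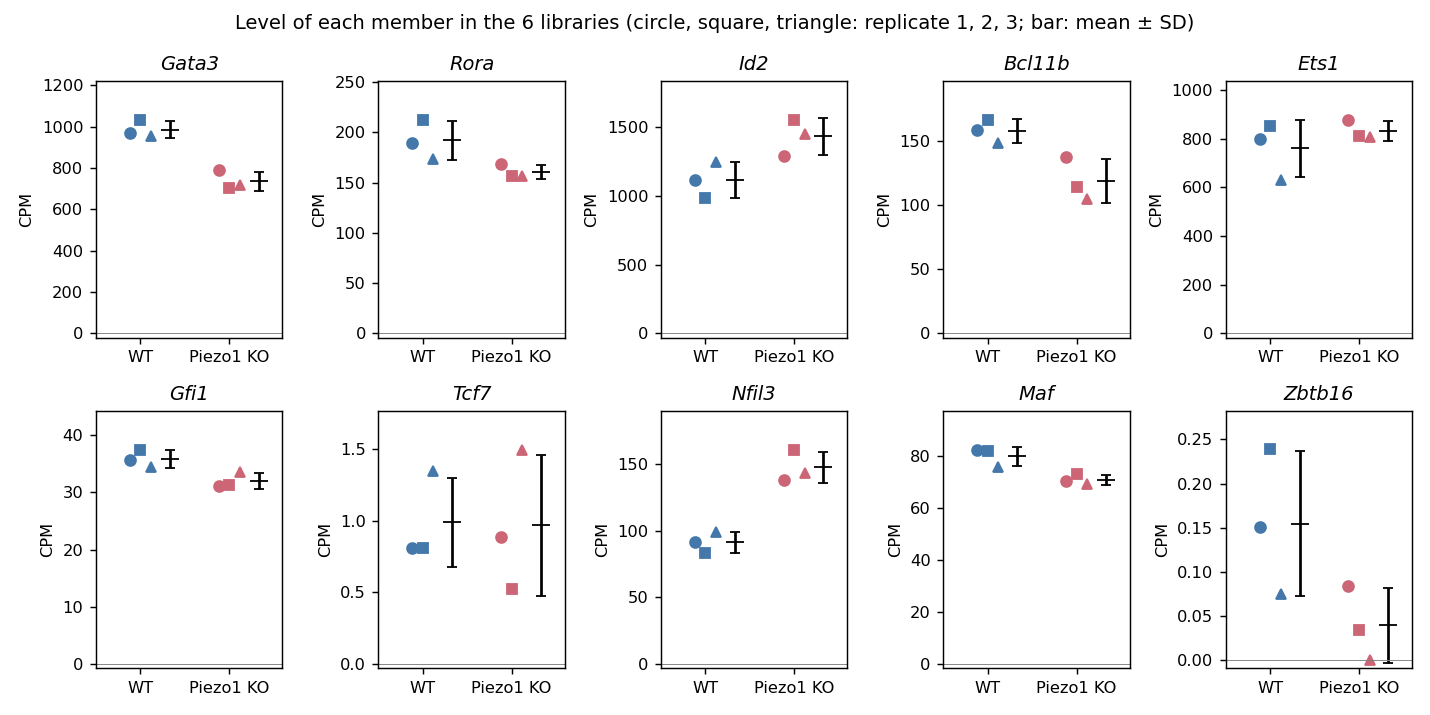
Level of each of the 10 factors in CPM (vertical axis, linear) in the 3 WT (blue) and 3 Piezo1 KO (red) libraries, with symbols for replicates 1, 2 and 3 and a black bar for the mean ± SD. Nfil3 and Id2 show every Piezo1 KO library above every WT library, Gata3, Rora, Bcl11b, Gfi1 and Maf every Piezo1 KO library below, and Ets1, Tcf7 and Zbtb16 overlap.

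The sequence just before the start site of the RefSeq transcript is shown for the 4 factors with the smallest p-values, 2 of them higher and 2 lower in all Piezo1 KO libraries. Each is 250 bases, 5′ to 3′ on the gene's strand (all 4 lie on the minus strand), in build GRCm38.p6. RefSeq windows were found for 7 of the 10 factors, the unmatched ones being Ets1, Maf and Zbtb16. Capitals mark matches, on either strand, to 6 motifs that were searched in every window.
Nfil3 (chr13:52981040-52981289): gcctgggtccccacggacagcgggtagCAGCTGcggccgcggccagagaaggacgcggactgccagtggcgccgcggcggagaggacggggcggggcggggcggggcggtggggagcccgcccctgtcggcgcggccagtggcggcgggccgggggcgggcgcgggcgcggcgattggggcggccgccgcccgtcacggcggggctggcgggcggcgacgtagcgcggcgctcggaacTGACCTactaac
Id2 (chr12:25096093-25096342): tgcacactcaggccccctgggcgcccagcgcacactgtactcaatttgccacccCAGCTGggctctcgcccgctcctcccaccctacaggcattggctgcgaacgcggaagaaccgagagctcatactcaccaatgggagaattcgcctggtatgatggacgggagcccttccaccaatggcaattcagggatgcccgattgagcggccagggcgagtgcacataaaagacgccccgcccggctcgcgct
Gata3 (chr2:9878601-9878850): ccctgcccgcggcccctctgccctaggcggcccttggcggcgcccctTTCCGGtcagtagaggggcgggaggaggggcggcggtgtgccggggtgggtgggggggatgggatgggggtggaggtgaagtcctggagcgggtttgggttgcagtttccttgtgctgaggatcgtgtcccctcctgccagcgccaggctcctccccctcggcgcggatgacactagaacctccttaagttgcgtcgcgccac
Bcl11b (chr12:108003415-108003664): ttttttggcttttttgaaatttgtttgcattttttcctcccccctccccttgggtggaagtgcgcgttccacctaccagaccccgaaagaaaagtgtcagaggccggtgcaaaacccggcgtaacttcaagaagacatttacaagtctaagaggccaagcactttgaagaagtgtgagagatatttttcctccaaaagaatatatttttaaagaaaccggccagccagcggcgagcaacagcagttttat

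In these windows the capitals are an E-box, CACCTG or CAGCTG, which E proteins bind, in Nfil3 and Id2; a ROR half-site, AGGTCA, read here as TGACCT, in Nfil3; and an ETS core, CCGGAA, read here as TTCCGG, in Gata3. The Bcl11b window held none of the 6. The E-box words occur in 27.7% of the 32851 RefSeq windows of this length, the ROR half-site in 14% and the ETS core in 12%. The words for GATA factors (GATA with A or T before it and A or G after it, in 26.5% of windows), for STAT factors (TTCNNNGAA, in 7.02%) and for NFIL3 (TTATGTAA or TTACGTAA, in 0.931%) were in none of these 4. Among windows not shown, a window of Gfi1, lower in all Piezo1 KO libraries, and a window of Tcf7 also held an E-box. Another Tcf7 window held an ETS core and a ROR half-site, and the Rora window a GATA word. A match describes letters only. The Nfil3 window is 81.6% G and C, those of Gata3 and Id2 70% and 62.8%, and that of Bcl11b 44.8%.

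Nfil3 (chr13:52967209-52981073, minus strand in mm10) encodes a basic leucine zipper repressor needed to form the common helper ILC progenitor, which cytokine signalling also induces in mature lymphocytes. It was at 91.4, 83.2 and 98.9 CPM in WT replicates 1, 2 and 3 and at 138, 161 and 143 CPM in Piezo1 KO replicates 1, 2 and 3. Every Piezo1 KO library was above the highest WT library, and the spread within each group was small, with a coefficient of variation of 8.61% in WT and 8.02% in Piezo1 KO. Means of 91.2 ± 7.85 CPM in WT and 148 ± 11.8 CPM in Piezo1 KO (SD, n = 3) gave a fold of 1.62 with a 95% interval of 1.37 to 1.91 (log2 fold change 0.70 ± 0.10 SE, adjusted p = 0.0207, edgeR). The log2 fold change lay between 0.61 and 0.76 in 14 alternative analyses, of which 9 called it, with adjusted p from 2.98e-06 to 0.139. Of the 5 that lost the call, 4 left out a library: WT replicate 1 (adjusted p = 0.126) and Piezo1 KO replicates 1 (0.0985), 2 (0.139) and 3 (0.0982), in fits that called 34, 35, 33 and 53 genes in all, or 0.234%, 0.241%, 0.227% and 0.366%, against 214 with every library (edgeR). The analyses that kept the call called 1.51% of genes with RLE size factors, 1.14% without a filter, 2.03% with a stricter filter, 1.54% in robust edgeR, 4.46% in DESeq2, 3.1% in limma-voom, 3.45% among protein-coding genes, and 2.04% and 1.63% without WT replicates 2 and 3.

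Id2 (chr12:25093799-25097140, minus strand) encodes the inhibitor of DNA binding that all ILCs depend on. It was at 1117, 985 and 1246 CPM in WT replicates 1, 2 and 3 and at 1288, 1552 and 1449 CPM in Piezo1 KO replicates 1, 2 and 3. The groups did not overlap, although WT replicate 3 and Piezo1 KO replicate 1 lay close together. The means were 1116 ± 131 and 1430 ± 133 CPM (SD, n = 3), and the 1.28-fold difference, with a 95% interval of 1.07 to 1.53, did not pass (log2 fold change 0.36 ± 0.11 SE, adjusted p = 0.214, edgeR). None of its 14 alternatives called it, and their adjusted p ranged from 0.0697 to 0.694.

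Tcf7 (chr11:52252371-52283014, minus strand), the gene of the Wnt-responsive factor TCF-1, which marks early ILC progenitors and T cells, was barely detected. It had 16, 27 and 18 counts in WT replicates 1, 2 and 3 and 21, 15 and 35 counts in Piezo1 KO replicates 1, 2 and 3. The groups overlapped throughout, at 0.987 ± 0.314 and 0.967 ± 0.493 CPM (SD, n = 3). The log2 fold change of −0.011 ± 0.50 (SE) did not pass (adjusted p = 0.996, edgeR), and its 95% interval ran from −1.16 to 1.14. The pooled counts were 61 in WT and 71 in Piezo1 KO, and the exact 95% counting interval of the WT to Piezo1 KO ratio, 0.684 to 1.40, was narrower than that of the fit, which also takes in the spread between libraries. Its sign turned in 5 of 13 alternatives.

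Zbtb16 (chr9:48654297-48836222, minus strand), which encodes PLZF, a factor of the ILC precursor that is switched off as ILC2s mature, had 3, 8 and 1 counts in WT replicates 1, 2 and 3 and 2, 1 and 0 in Piezo1 KO replicates 1, 2 and 3. The groups overlapped. The 0 in Piezo1 KO replicate 3 allows a level of up to 0.128 CPM at its depth, counting error only. Over the groups there were 12 counts in WT and 3 in Piezo1 KO, a WT level 4.56 times that of Piezo1 KO with an exact 95% counting interval of 1.23 to 25.2 that leaves out the spread between libraries. With 8 of the 12 WT counts in 1 library, no difference can be read from it, and Zbtb16 did not pass the filter on low counts.

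Gata3 (chr2:9857078-9890034, minus strand) encodes the zinc finger factor that ILC2s need at every stage and that drives Il5 and Il13. It was at 970, 1035 and 954 CPM in WT replicates 1, 2 and 3 and at 789, 703 and 718 CPM in Piezo1 KO replicates 1, 2 and 3. The highest Piezo1 KO library was well below the lowest WT library. Exons of Gata3 overlap those of 9230102O04Rik (77 bases) and Gm13256 (155 bases), each below 1 CPM, and whether counting used strand is not given. The means were 986 ± 42.9 and 737 ± 46.2 CPM (SD, n = 3), a fold of 0.747 with a 95% interval of 0.652 to 0.856. That difference missed the threshold (log2 fold change −0.42 ± 0.09 SE, adjusted p = 0.0612, edgeR). The log2 fold change lay between −0.48 and −0.39 in 14 alternatives. Of these 3 called it, namely DESeq2 (adjusted p = 0.000418), limma-voom with sample quality weights (0.0171) and the edgeR fit on protein-coding genes only (0.0342), and the highest adjusted p was 0.375, without Piezo1 KO replicate 2.

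Bcl11b (chr12:107910403-108003602, minus strand), a zinc finger factor that acts upstream of Gfi1 and Gata3 in ILC2s and commits T cells, was at 158, 167 and 148 CPM in WT replicates 1, 2 and 3. It was at 138, 114 and 105 CPM in Piezo1 KO replicates 1, 2 and 3. The groups did not overlap, and the Piezo1 KO libraries spread more widely than the WT libraries (coefficient of variation 14.3% against 5.82%). The means were 158 ± 9.18 and 119 ± 17.0 CPM (SD, n = 3), a fold of 0.754 with a 95% interval of 0.624 to 0.911, which did not pass (log2 fold change −0.41 ± 0.12 SE, adjusted p = 0.176, edgeR). Its adjusted p ranged from 0.0524 to 0.611 over 14 alternatives.

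Rora (chr9:68653786-69388246, plus strand) encodes the nuclear receptor RORα, without which ILC2s fail to develop. It was at 190, 213 and 173 CPM in WT replicates 1, 2 and 3 and at 169, 157 and 157 CPM in Piezo1 KO replicates 1, 2 and 3. WT replicate 3 and Piezo1 KO replicate 1 differed by less than the spread within WT. The means were 192 ± 19.7 and 161 ± 6.84 CPM (SD, n = 3), and the log2 fold change of −0.26 ± 0.10 (SE) did not pass (adjusted p = 0.320, edgeR).

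Gfi1 (chr5:107716657-107726036, minus strand), a zinc finger repressor that sustains the ILC2 program and holds down the ILC3 one, was at 35.7, 37.5 and 34.4 CPM in WT replicates 1, 2 and 3. It was at 31.1, 31.4 and 33.7 CPM in Piezo1 KO replicates 1, 2 and 3, so the groups were separated by less than 1 SD of either. The log2 fold change of −0.16 ± 0.10 (SE) did not pass (adjusted p = 0.531, edgeR), with a 95% interval from −0.38 to 0.058. Its exons share 101 bases with A430072P03Rik on the other strand, at 1.12 and 0.712 CPM.

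Maf (chr8:115682942-115707794, minus strand) encodes c-MAF, which in lymphocytes takes part in cytokine control. It was at 82.5, 81.8 and 75.9 CPM in WT replicates 1, 2 and 3 and at 70.5, 73.0 and 69.3 CPM in Piezo1 KO replicates 1, 2 and 3. The groups did not overlap but the gap was small, and the log2 fold change of −0.18 ± 0.09 (SE) did not pass (adjusted p = 0.438, edgeR; 95% interval −0.37 to 0.020). Maf lies 6.77 Mb from Piezo1 on chromosome 8. Of 118 tested genes within 10 Mb of Piezo1, itself left out, 1 was called (0.847%), beside 1.51% of all tested genes. The part of this position in the level of Maf was not tested. Of its exon bases 440 are shared with Gm15655 on the other strand, not analysed here.

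Ets1 (chr9:32636221-32757820, plus strand) encodes the founding ETS factor, which lung ILC2s need in order to expand. It was at 800, 854 and 630 CPM in WT replicates 1, 2 and 3 and at 879, 810 and 808 CPM in Piezo1 KO replicates 1, 2 and 3. WT replicate 3 stood low and the other 5 libraries overlapped. The log2 fold change of 0.13 ± 0.12 (SE) did not pass (adjusted p = 0.720, edgeR), its 95% interval ran from −0.15 to 0.41, and without WT replicate 3 it was 0.0078.

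**Figure D2:**
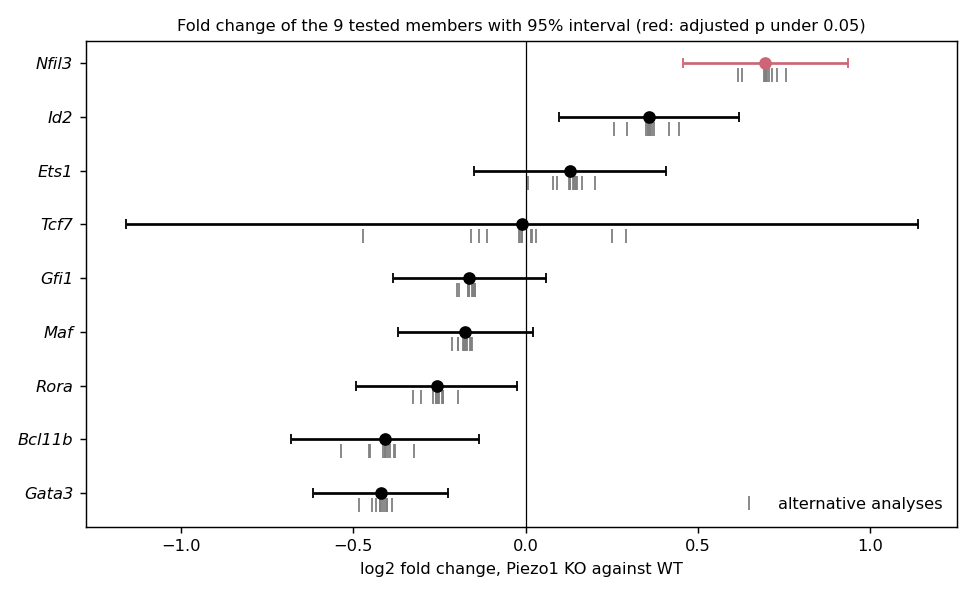
Log2 fold change of Piezo1 KO against WT (horizontal axis) for the 9 tested factors, with the 95% interval of the edgeR fit and grey ticks for the alternative analyses. Nfil3, in red, is the factor that passed; the intervals of Id2, Rora, Bcl11b and Gata3 also leave out 0, without adjustment for the number of genes tested, and that of Tcf7 runs from −1.16 to 1.14.

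**Figure D3:**
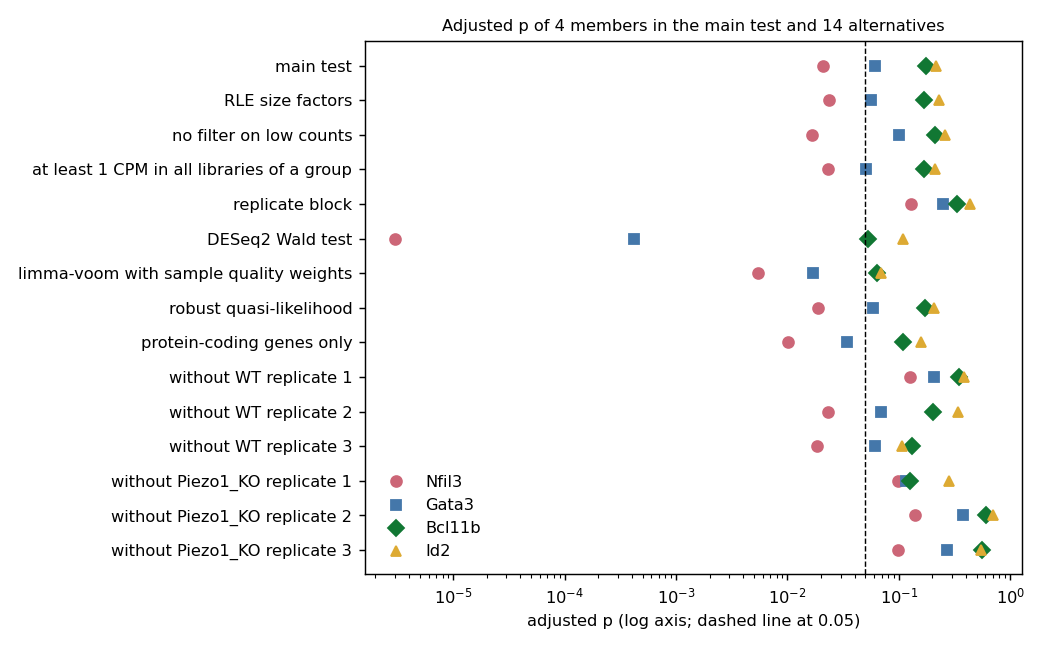
Adjusted p (horizontal log axis, dashed line at 0.05) of Nfil3, Gata3, Bcl11b and Id2 in the main test and 14 alternatives (rows). Nfil3 lies left of the line in the main test and 9 alternatives, Gata3 in 3, and Bcl11b and Id2 in none.

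Levels of different genes were compared per kb of exon, using the union of annotated exons, which understates genes such as Rora whose many transcript forms add exons that these cells may not use. Id2 led, at 458 ± 53.7 CPM per kb in WT and 586 ± 54.6 in Piezo1 KO (SD, n = 3), and ranked 51st to 70th of 17579 genes over the 6 libraries. Gata3 came next at 248 ± 10.8 and 185 ± 11.6 CPM per kb. Ets1 (89.8 and 98.2), Nfil3 (45.0 and 72.8), Bcl11b (19.5 and 14.7), Rora (14.7 and 12.3), Gfi1 (11.2 and 10.1) and Maf (9.72 and 8.61) followed in mean CPM per kb. Tcf7, at 0.376 and 0.368, and Zbtb16, at 0.0293 and 0.00751, were far below. The order was the same in both groups, and in each group every pair of neighbours in it was separated without overlap between the libraries of that group. The step from Maf down to Tcf7 was 25.8-fold in WT and 23.4-fold in Piezo1 KO, and of the factors of the progenitor stage Id2 and Nfil3 lay above it and Tcf7 and Zbtb16 below it.

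**Figure D4:**
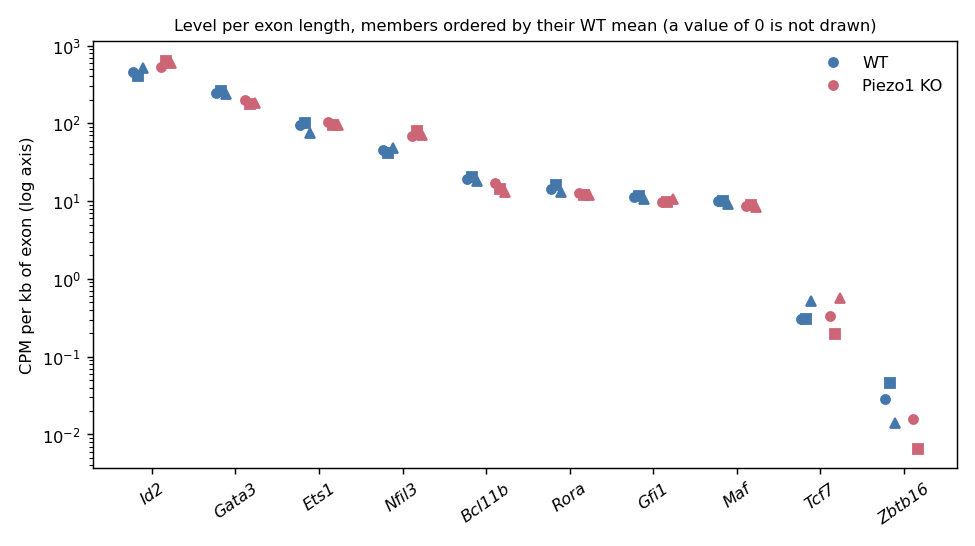
Level per kb of exon (vertical log axis) of the 10 factors in each WT (blue) and Piezo1 KO (red) library, ordered by the WT mean. Id2 and Gata3 lead at 458 and 248 CPM per kb in WT, Maf stands at 9.72, and Tcf7 and Zbtb16 stand at 0.376 and 0.0293; the 0 of Zbtb16 in Piezo1 KO replicate 3 is not drawn.

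The summed level of the 10 factors was 3363 to 3457 CPM in WT and 3484 to 3602 CPM in Piezo1 KO, or 0.344% to 0.348% and 0.343% to 0.352% of the counts. Ratios taken within a library do not depend on how libraries were scaled. The ratio of Id2 to Gata3 per kb was 1.88, 1.55 and 2.13 in WT replicates 1, 2 and 3 and 2.66, 3.60 and 3.29 in Piezo1 KO replicates 1, 2 and 3. That of Nfil3 to Gata3 was 0.158 to 0.204 in WT and 0.344 to 0.450 in Piezo1 KO. Neither ratio overlapped between the groups. That was fixed by the levels above, as Id2 and Nfil3 were higher and Gata3 lower in every Piezo1 KO library, and adds no support. The ratio of Bcl11b to Gata3 was 0.0763 to 0.0800 in WT and 0.0716 to 0.0857 in Piezo1 KO, overlapping. These ratios were chosen after the values were seen and carry no test.

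ID2 works through E proteins, so their genes Tcf3 (E2A), Tcf4 (E2-2) and Tcf12 (HEB) were set beside it, again chosen after their values were seen. Tcf3 was at 124, 130 and 131 CPM in WT replicates 1, 2 and 3 and at 113, 96.0 and 97.4 CPM in Piezo1 KO replicates 1, 2 and 3, without overlap, and did not pass (log2 fold change −0.33 ± 0.10 SE, adjusted p = 0.174, edgeR). Tcf12 and Tcf4 overlapped between groups, with log2 fold changes of −0.12 ± 0.13 and 0.11 ± 0.19 (SE). Per kb, Id2 exceeded the sum of the 3 E protein genes 13.2, 11.2 and 14.3 times in WT replicates 1, 2 and 3 and 16.7, 23.5 and 21.5 times in Piezo1 KO replicates 1, 2 and 3. Per kb of exon union the sum was mostly Tcf3, with means of 31.7 in WT and 25.2 in Piezo1 KO. Tcf12 added 3.52 and 3.24, and Tcf4 0.259 and 0.277. The ratio of Id2 to this sum was above WT in every Piezo1 KO library, with Piezo1 KO replicate 1 closest to WT. That too was fixed by its parts. Id2 was higher in every Piezo1 KO library, and the sum was 34.7 to 36.2 in WT and 27.1 to 31.6 in Piezo1 KO. Of 5 tested genes of the wider list of E and Id proteins, 0 passed in edgeR, with 1 called by DESeq2 and 1 in the fit on protein-coding genes. The smallest p there was that of Id3, another Id protein gene, at 10.4 ± 0.361 CPM in WT and 16.0 ± 2.12 CPM in Piezo1 KO (SD, n = 3; log2 fold change 0.62 ± 0.15 SE, adjusted p = 0.105, edgeR).

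**Figure D5:**
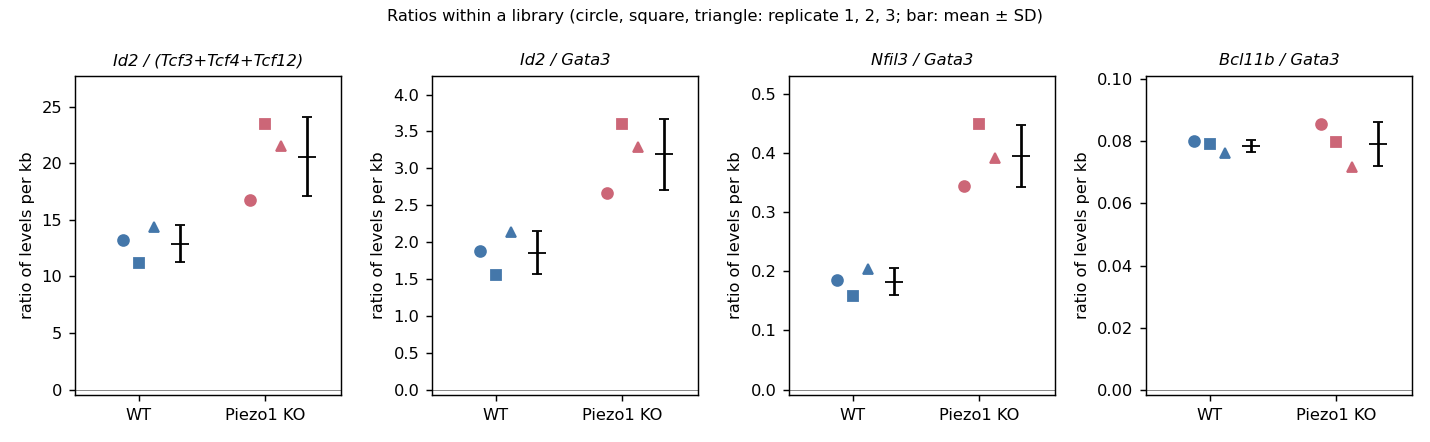
Ratios of levels per kb of exon within each library (vertical axes, linear from 0), with symbols for replicates 1, 2 and 3 and the mean ± SD. The ratios of Id2 to the summed E protein genes, of Id2 to Gata3 and of Nfil3 to Gata3 are higher in all 3 Piezo1 KO libraries, while Bcl11b to Gata3 overlaps at 0.0716 to 0.0857. The separation of those 3 ratios was fixed by the levels of their parts.

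Other regulators of lymphoid and ILC development were close to their WT level at the median. Of 18 tested genes on that list, 1 rose and 0 fell, where 1% and 0.509% of all tested genes did. The median log2 fold change was 0.050. Without overlap, 4 lay above and 0 below, where 10.1% and 10.5% of all tested genes did. The list was drawn up with earlier results of these data known. The one that rose was Myb, a factor of progenitors and proliferating lymphocytes. It was at 73.7, 67.0 and 67.6 CPM in WT replicates 1, 2 and 3 and at 117, 102 and 112 CPM in Piezo1 KO replicates 1, 2 and 3, without overlap (log2 fold change 0.67 ± 0.09 SE, adjusted p = 0.0169, edgeR). Its call, like that of Nfil3, was lost without WT replicate 1 (adjusted p = 0.0825) or any Piezo1 KO replicate (0.101, 0.0788 and 0.0982 without replicates 1, 2 and 3).

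Among 17 tested transcription factors of activated ILC2s, 0 passed in edgeR (1 in DESeq2), with a median log2 fold change of 0.061. Bhlhe40, a helix-loop-helix repressor that supports cytokine output, had the smallest p there, at 189 ± 12.5 CPM in WT and 240 ± 8.74 CPM in Piezo1 KO (SD, n = 3; log2 fold change 0.34 ± 0.09 SE, adjusted p = 0.133, edgeR). Of 18 tested cofactors, such as the corepressors that GFI1 and PLZF recruit, 0 passed in edgeR and 0 in DESeq2, with a median of −0.044. Mbd3, of the NuRD complex, had the smallest p (log2 fold change −0.34 ± 0.11 SE, adjusted p = 0.234, edgeR).

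Of 8 tested regulators of other lymphocyte fates, 0 rose and 1 fell, where 1% and 0.509% of all tested genes did, and 6 were negative. Their median log2 fold change was −0.38. Without overlap, 0 lay above and 4 below, where 10.1% and 10.5% of all tested genes did, in a list drawn up as above. The one that fell was Tbx21, which encodes T-bet, the factor of ILC1s and NK cells. It had between 20 and 44 counts in each WT library and 0 in all 3 Piezo1 KO libraries, and was at least 32.3-fold lower in Piezo1 KO when 3 counts are taken as the floor of the pooled group, which allows for counting error alone (adjusted p = 0.0170, edgeR). That call was lost without WT replicate 1 (adjusted p = 0.113) or Piezo1 KO replicate 1 (0.0760), 2 (0.0788) or 3 (0.0624).

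Of 18 tested family relatives of the factors, 0 passed in edgeR, 3 in DESeq2 and 1 in limma-voom, where 1.51%, 4.46% and 3.1% of all tested genes did. Without overlap, 5 lay above and 6 below, where 10.1% and 10.5% of all tested genes did. The median log2 fold change was −0.24, and the list was drawn up with earlier results of these data known. Gata2, the most abundant relative of Gata3, was at 0.592 ± 0.706 CPM in WT and 0.0685 ± 0.0903 CPM in Piezo1 KO (SD, n = 3) and was not tested. Lef1, the relative of Tcf7, was at 39.1 ± 5.40 and 54.4 ± 3.67 CPM (SD, n = 3), without overlap, and did not pass (log2 fold change 0.48 ± 0.12 SE, adjusted p = 0.131, edgeR). Per kb it stood at 4.45 and 6.20 CPM, so in these cells Lef1 and not Tcf7 was the well detected gene of that pair. Hlf, a leucine zipper activator of the group that NFIL3 opposes at shared sites, was at 197 ± 30.01 and 148 ± 9.25 CPM (SD, n = 3), lower in all 3 Piezo1 KO libraries. Its difference did not pass (log2 fold change −0.42 ± 0.12 SE, adjusted p = 0.185, edgeR), and passed without WT replicate 3 (adjusted p = 0.0455) and in DESeq2 (0.0432). A link between the levels of Hlf and Nfil3 was not tested. The most abundant relatives of Ets1, Maf and Zbtb16 were Fli1, Mafg and Zbtb7a, with log2 fold changes of 0.013 ± 0.11, −0.27 ± 0.09 and −0.21 ± 0.10 (SE), none of which passed.

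Genes that ILC2s are known to need GATA3 for differed in both directions. Of 11 tested, 1 rose, 2 fell and 8 did not pass, with a median log2 fold change of 0.26 and 6 positive values. Over all tested genes 1% rose and 0.509% fell, and the 11 were listed with earlier results of these data known. Il17rb, the IL-25 receptor chain, rose, from 37.4, 38.8 and 43.1 CPM in WT replicates 1, 2 and 3 to 68.7, 62.4 and 68.1 CPM in Piezo1 KO replicates 1, 2 and 3 (log2 fold change 0.74 ± 0.10 SE, adjusted p = 0.0136, edgeR). Icos, a co-stimulatory receptor, fell, from 345, 371 and 360 CPM in WT replicates 1, 2 and 3 to 220, 244 and 238 CPM in Piezo1 KO replicates 1, 2 and 3 (log2 fold change −0.61 ± 0.09 SE, adjusted p = 0.0168, edgeR). Il7r fell too (log2 fold change −1.03 ± 0.12 SE, adjusted p = 0.00722, edgeR), and it is the locus of the Cre driver, whose allele number in each group is not given. These 3 genes are also the called ILC2 markers given above, so the 2 counts are not separate results. The count of 3 became 0 without WT replicate 1 or Piezo1 KO replicates 1 or 2, and 1 without Piezo1 KO replicate 3.

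Several of the 10 factors are also made by other lymphocytes, so markers of the cell types that a lung sort could hold are given beside them. For T cells, which also express Bcl11b, Tcf7, Ets1, Maf and Gata3, 8 of 12 listed markers had values, with a summed level of 55.3 to 65.2 CPM in WT and 66.6 to 75.9 CPM in Piezo1 KO. Without Lck the sum was 40.4 to 53.1 CPM in WT and 30.1 to 35.5 CPM in Piezo1 KO, the opposite order. Of 6 tested T cell markers 1 rose and 0 fell, 4 were negative, and the median log2 fold change was −0.50. Trac was below 1 CPM on average in each group and Cd3e was at 2.83 ± 0.411 and 1.20 ± 0.373 CPM (SD, n = 3). Other listed genes made up most of the sum without Lck. Lck itself rose (log2 fold change 1.51 ± 0.15 SE, adjusted p = 0.00384, edgeR). The 4 of 9 markers of NK cells and ILC1s that had values summed to 64.0 to 87.4 CPM in WT and 40.2 to 60.0 CPM in Piezo1 KO, most of it Gzma. The 3 of 7 ILC3 markers summed to 1204 to 1416 and 1065 to 1183 CPM, nearly all Cxcr6, which ILC2s also express. Those of B and plasma cells (4 of 9) summed to 35.5 to 42.1 and 82.0 to 105 CPM, of which Ighm, the one called of 3 tested, was 15.9 to 23.7 and 57.9 to 77.1 CPM. Those of granulocytes and mast cells (6 of 12) summed to 12.4 to 17.4 and 4.40 to 6.01 CPM, and those of macrophages and dendritic cells (9 of 12) to 5.97 to 12.9 and 4.48 to 7.78 CPM. Erythroid and platelet markers (5 of 7) summed to 4.45 to 5.40 CPM in WT and 26.8 to 31.4 CPM in Piezo1 KO, and lung epithelial, endothelial and stromal markers (3 of 13) to 51.0 to 59.7 and 83.2 to 85.4 CPM, mainly Pecam1. Of tested markers, 2 of 2 erythroid and platelet (median log2 fold change 5.82) and 1 of 2 lung ones rose. That median rests on low WT levels. Hba-a1 was at 3.52 to 4.87 CPM in WT and 23.6 to 28.2 CPM in Piezo1 KO. The other erythroid and platelet markers together were at 0.321 to 0.926 and 3.18 to 3.21 CPM. Among NK cell and ILC1 markers 1 of 3 fell, the same Tbx21 given above, and among granulocyte and mast cell markers 1 of 4. For ILC3s 0 of 2 passed, and for macrophages and dendritic cells 0 of 4. Over all tested genes 1.51% were called (edgeR). The part of these cell types in the levels of the 10 factors was not tested.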

How the data were processed

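RNA of 6 libraries of sorted lung ILC2s was sequenced from 10 ng of input RNA, per the labels' protocols. The authors deposited estimated counts per gene, which include fractions and carry no scaling. Per the submitters' processing notes the build is mm10. Aligner, counting tool, annotation and strand setting were not given in the sources used here. Library rows were matched to samples by the label description, and groups came from the titles.

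Estimated counts were rounded. Genes were kept by filterByExpr, scaled by TMM and tested in edgeR 4.0.16 (R 4.3.3) with glmQLFit and glmQLFTest, unpaired and two-sided, with Benjamini-Hochberg adjustment over 14149 genes and a threshold of 0.05. SE is the absolute log2 fold change divided by the square root of F, and 95% intervals use the moderated degrees of freedom. The fit was tested on simulated data. Levels per kb used exon unions of GENCODE M21 (GRCm38, which is mm10), for 17579 genes whose symbol occurs there once. Replicate pairs differed beyond sampling noise (chi-square per gene 9.97 to 55.4).

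The 10 factors and the lists (111 pathway genes, 96 with values; 94 cell type markers, 56 with values) were chosen with earlier results of these data known. Named genes are the 10 factors, Piezo1, from each pathway list the called genes (at most 3) or the one with the smallest p, and the most abundant relative of each family; the E protein genes Tcf3, Tcf4 and Tcf12, and the cell type markers named, were chosen after their values were seen. A further gene that the rule names is not reported here. Alternatives were RLE size factors, no filter, a stricter filter (1 CPM or more throughout either group), a replicate block, DESeq2 1.42.0, limma-voom (limma 3.58.1) with sample quality weights, robust quasi-likelihood, protein-coding genes only and leaving out each library. Counting intervals and limits of 0 (3 counts) cover counting error only.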

Additional observations from a re-analysis of the deposited data

How the results depend on the processing

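The number of genes called, 214 (142 higher, 72 lower), stayed within 1.5 times under RLE size factors, no filter, the stricter filter and robust quasi-likelihood. It was 594 in DESeq2 (353 higher, 241 lower), 439 in limma-voom (267 and 172), 392 on protein-coding genes (256 and 136) and 52 under a replicate block (37 and 15). Leaving out 1 library gave 33 to 297 (22 to 209 higher, 10 to 92 lower). Of the 10 factors 1 was called, with 2 in DESeq2, limma-voom and protein-coding genes, 0 with the replicate block and 0 to 1 without 1 library. Deviations from the group mean correlated at −0.023, −0.18 and −0.0075 between WT and Piezo1 KO libraries of the same replicate number. Between those of different numbers they correlated at −0.18 to 0.21. With 3 libraries per group, these values cannot settle whether the numbers mark pairs. The block ended the calls of Nfil3 (adjusted p = 0.130, edgeR), Myb (0.0824), Tbx21 (0.152), Icos (0.101) and Il17rb (0.0807). Called list genes changed as follows: GATA3-dependent genes 3, with 1 under the block and 0 to 3 without 1 library; lymphoid regulators 1, with 0 under the block and 0 to 1; other fates 1, with 2 in limma-voom, 0 under the block and 0 to 1; relatives 0, with 3 in DESeq2, 1 in limma-voom, 1 on protein-coding genes and 0 to 1; E and Id proteins 0, with 1 in DESeq2 and 1 on protein-coding genes; activated ILC2 factors 0, with 1 in DESeq2. Log2 fold changes changed sign for Tcf7 (0.020 in limma-voom, 0.014 on protein-coding genes, 0.25, 0.029 and 0.29 without WT replicate 3, Piezo1 KO replicate 1 and Piezo1 KO replicate 2, with −0.47 as the lowest), Fli1 (−0.021 in limma-voom, −0.071, −0.016 and −0.018 without WT replicate 3, Piezo1 KO replicate 1 and Piezo1 KO replicate 3, with 0.062 as the highest) and Tcf4 (−0.019 without WT replicate 2, up to 0.26 without WT replicate 3). Fits without 1 library have fewer samples; the cause of the other changes was not tested. Zbtb16, at 0 to 8 counts a library, is limited by depth.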
